A study of Mus musculus with 32 samples.

Results

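The libraries with replicate numbers 5 to 8 of a series on azacitidine in stromal cells are described here: 4 without and 4 with the drug, 8 of 32 libraries in all. They were chosen by the replicate number in their labels, and their azacitidine contrast is set beside the same contrast in numbers 1 to 4, 9 to 12 and 13 to 16, 4 against 4 each. The labels do not say what a run of 4 numbers stands for, so "block" means only such a run. Numbers 5 to 8 were picked out after results of these libraries were known, namely the number of genes called in each block and the medians of the collagen, matrix remodelling and interferon lists. Values of the contrast within 5 to 8 are therefore a description and carry no p here, and tests between blocks, which share those values, are not independent of the choice. All libraries hold polyadenylated RNA of EL08, a murine stromal cell line that came from embryonic liver and is used to support blood-forming cells in culture. The groups are named without AZA and with AZA (azacitidine) in the labels, which give no genetic change and neither dose, duration nor vehicle, and 1 cell line is the whole model. The labels name no separate cultures, and the p-values below describe library-to-library spread that may be purely technical, and 1 block against 3 leaves the block itself without a replicate. With the block as the unit, the smallest p would be 0.25.

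Azacitidine is a cytidine analogue that is built into RNA and DNA, where it traps DNA methyltransferases, so that methylation is lost as cells divide. Genes held silent by promoter methylation, among them germ cell genes, can then be transcribed, and transcripts of endogenous retroviruses can set off the interferon pathway. Stromal cells of the liver and marrow make collagens and other matrix proteins as well as secreted factors, such as the chemokine Cxcl12, that hold and feed blood stem cells.

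Each library is a count of unique molecular identifiers (UMIs, 1 per captured cDNA molecule) for 21829 genes. Totals in 5 to 8 ran from 1277717 to 1634734 UMIs without and from 1695507 to 4218313 with azacitidine, inside the range of the series, 818619 to 5039721. Of the stromal markers, Col1a1, Col1a2, Vim, Pdgfrb and Prrx1 were present in all 8 libraries and Thy1 had 0 UMIs without and 2 with the drug, while the leukocyte marker Ptprc had 0 and 2, and the epithelial marker Epcam and the macrophage marker Adgre1 had 0 in both groups. The library with AZA 5 stood apart from with AZA 6 to 8. Its chi-square per degree of freedom against them was 4.18 to 4.96, where pairs among 6 to 8 gave 1.11 to 1.29 and pairs without the drug 1.13 to 2.60. No pair of libraries agreed within sampling noise (chi-square test of the counts, p of 7.78e-19 or lower without and 1.31e-16 or lower with the drug). Counts below are therefore also given without with AZA 5.

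In 5 to 8, 300 genes were higher and 310 lower with azacitidine, 6.6% of the 9236 tested (3.25% higher, 3.36% lower). "Called" means, here and below, a p under 0.05 in edgeR's quasi-likelihood test after Benjamini-Hochberg adjustment over every gene tested, and since these libraries chose the block nothing is read from that share. The same test called 267 of 10652 genes in 1 to 4, or 2.51%, 117 of 8886 in 9 to 12, or 1.32%, and 367 of 9381 in 13 to 16, or 3.91%. The increases were 1.96%, 1.04% and 2.26% of the genes tested in those blocks and the decreases 0.544%, 0.281% and 1.65%, in that order. Without with AZA 5 the numbers in 5 to 8 were 419 higher and 410 lower, and 579 of the 610 genes were called again in the same direction. Among the called genes 78 rose and 32 fell by at least 2-fold, and the median log2 difference was 0.61 for the increases and -0.55 for the decreases. The 4 libraries of 1 group lay wholly above those of the other for 270 of the 300 increases and, on the other side, for 264 of the 310 decreases. Over all tested genes 588 lay wholly above and 517 wholly below. With libraries scaled by their spike-in RNAs, whose share ran from 0.0369% to 0.2075% of UMIs among with AZA 5 to 8, the median of all genes moved up by 0.26 and 26 genes were called, all of them higher, so that falls below are falls relative to the median gene. In bulk RNA, fewer cells that make a transcript and less of it per cell cannot be told apart.

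The 24 libraries of the other blocks did not enter the calls in 5 to 8. Their own numbers of called genes were known when 5 to 8 was picked, so the overlap below is a description. These libraries gave 440 increases and 353 decreases among 9348 genes, 8.48% in all, 4.71% higher and 3.78% lower (edgeR, block as a term). With spike-in scaling they gave 685 increases and 0 decreases, the median of all genes having moved up by 0.32, so falls in these libraries too are relative to the median gene. Of the 300 genes higher in 5 to 8, 120 were called higher there too, 40% of the first list and 27.3% of the second. Of the rest 5 were called lower there, 148 were not called and 27 were not tested. Of the 310 genes lower in 5 to 8, 50 were called lower in the other blocks, 16.1% of the first list and 14.2% of the second, 29 were called higher, 230 were not called and 1 was not tested. The median log2 difference of the 300 increases was 0.61 in 5 to 8 and 0.24 in the other blocks, and that of the 310 decreases was -0.55 and -0.07; the values in 5 to 8 chose these genes and had to be far from 0.

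Whether the azacitidine difference itself differed was tested in a fit of all 32 libraries, as the log2 difference in 5 to 8 minus the mean of the 3 other blocks. This contrast of blocks called 284 of 10440 genes, 2.72%, with 95 higher (0.91%) and 189 lower (1.81%) in 5 to 8. The difference in 5 to 8 lay outside the range of the 3 other blocks for 95 of the 95 and 187 of the 189, 2.7% of all tested (0.91% higher, 1.79% lower). Scaling by library totals alone, in place of TMM (edgeR's trimmed mean of M values), gave 59 higher and 237 lower, spike-in scaling gave 0 and 3, and leaving out with AZA 5 gave 72 and 168. The scatter of the differences shows both sets of genes.

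**Figure D1:**
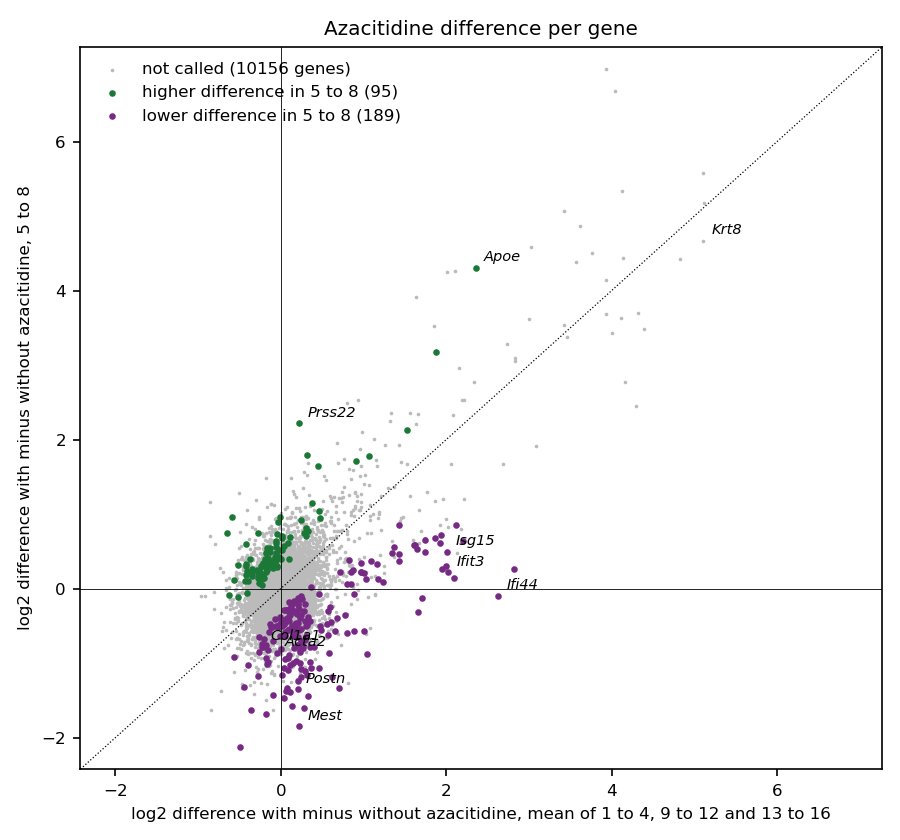
Each point is 1 of 10440 genes, with the log2 difference with minus without azacitidine in replicate numbers 5 to 8 on the y axis and the mean of the same difference in the 3 other blocks on the x axis. The 95 green and 189 purple genes passed the contrast of blocks, and Apoe (4.31 on the y axis) lies far above the dotted line of equal differences while Mest (-1.84) and Ifi44 (-0.10) lie far below it.

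The largest increases in 5 to 8 were of genes with few or no UMIs in the untreated libraries, and they were also present with the drug in the other blocks. Krt8, a keratin of simple epithelia, was at 1.18, 2.54, 1.27 and 3.11 CPM (UMIs relative to the library's total) in without AZA 5, 6, 7 and 8 and at 57.2, 50.6, 47.4 and 51.7 in with AZA 5, 6, 7 and 8. The 4 treated libraries lay close together and far above the 4 untreated ones. The log2 difference was 4.66 ± 0.24 (SE), and in the other blocks it was 5.03, 4.58 and 5.72 for 1 to 4, 9 to 12 and 13 to 16. Its keratin partner Krt18 went from 1.77, 0, 1.9 and 0.78 to 27.1, 24.2, 27.8 and 23.2 CPM. Neither keratin was called in the contrast of blocks (adjusted p = 0.79 and 0.88). The RefSeq promoter of Krt8 (250 bases before and 50 after the start, chr15:102004293-102004592, minus strand, GRCm38.p6) is printed because this gene had the highest treated level among the named genes that were nearly silent without the drug. Capitals mark the CG dinucleotides, the sites that DNA methyltransferases methylate, of which it holds 6; the median over 32851 such windows of 27025 genes is 7.
Krt8 promoter: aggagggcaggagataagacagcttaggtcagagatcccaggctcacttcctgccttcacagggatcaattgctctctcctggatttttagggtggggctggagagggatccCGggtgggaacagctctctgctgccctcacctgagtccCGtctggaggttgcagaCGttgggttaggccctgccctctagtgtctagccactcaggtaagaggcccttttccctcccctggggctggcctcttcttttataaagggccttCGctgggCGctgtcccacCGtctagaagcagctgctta

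Germ cell genes, many of which methylation keeps silent outside the germ line, were mostly too low to test. Of 36 that were counted, 5 passed the count filter in 5 to 8 (7 without with AZA 5), and the other 31 did not. Nearly silent genes pass that filter only through the treated libraries and then have to differ, so no count or median over them is read as a result, in the plot of list medians either. Rhox5, a homeobox gene of the reproductive cluster on the X chromosome, rose from 7.69, 5.07, 10.1 and 7.78 to 233, 139, 169 and 158 CPM, a log2 difference of 4.49 ± 0.22; its contrast of blocks was not called (edgeR adjusted p = 0.094). With AZA 5 was the highest of the treated libraries. Gtsf1, a factor of the piRNA pathway that silences transposons, rose from 0.59, 0, 0.63 and 1.56 to 24, 11.3, 12.2 and 15.7 CPM.

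Several genes of this kind had almost no untreated counts, so their ratios are given from the summed UMIs, with intervals for counting error only. Tex19.1, which restrains retrotransposons in germ cells, had 0 UMIs in the 4 untreated and 74 in the 4 treated libraries, at least 15.3-fold higher against a floor of 3 counts over the group. Rhox2h had 3 and 196 UMIs, a ratio of 40.6 (exact 95% interval 13.7 to 199), and Rhox2g had 1 and 107. These 2 are near-identical copies whose reads can be split between them. Syce2, part of the meiotic synaptonemal complex, had 1 and 73 UMIs, a ratio of 45.4 (interval 7.89 to 1816). The secreted glutathione peroxidase Gpx3 had 1 and 86, the lectin-like receptor Clec1a 2 and 110, and Igsf23 2 and 90. Adjusted p-values of these 7 genes in the contrast of blocks were 0.49 or higher (edgeR).

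Apoe, Lum, Slpi and Gpnmb had differences above 0 in every block and rose more in 5 to 8. Apoe (chr7:19696109-19699188, minus strand, GENCODE M21 on mm10), which carries lipids out of cells, was at 7.69, 8.88, 6.97 and 4.67 CPM without and 172, 130.0, 147 and 121 CPM with the drug. The groups did not overlap, and the treated libraries also lay above the range with the drug in the other blocks, 38.2 to 89.1 (median 63.5). The log2 difference was 4.30 ± 0.17 in 5 to 8 and 2.10, 2.73 and 2.23 in the other blocks, and the contrast of blocks gave 1.95 ± 0.24 (edgeR adjusted p = 2.78e-07). Lum, a proteoglycan that spaces collagen fibrils, went from 20.7, 23.5, 20.3 and 18.7 to 285, 164, 160.2 and 152 CPM with a contrast of blocks of 1.31 ± 0.23 (adjusted p = 3.82e-04). With AZA 5 was far above the rest, and without it the contrast was 1.04. Slpi, a secreted protease inhibitor, went from 104, 112, 105 and 114 to 442, 322, 302 and 296 CPM (contrast of blocks 1.20 ± 0.20, adjusted p = 3.67e-04). The lysosomal glycoprotein Gpnmb went from 1510.3, 1466, 1433 and 2349 to 5189.5, 8193, 8240.0 and 8009.5 CPM, and with AZA 5 was the lowest of the treated libraries. For Gpnmb the contrast of blocks was 0.61 ± 0.14 (adjusted p = 0.0065). Untreated levels also enter these contrasts. Without with AZA 5 the contrasts of blocks were 1.85, 1.04, 1.04 and 0.74 for Apoe, Lum, Slpi and Gpnmb. The treated levels alone, against the other treated blocks, differed by 1.08, 1.32, 0.66 and 1.64. On these estimates untreated Apoe and Slpi were lower, and untreated Lum and Gpnmb higher, than in the other blocks.

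Collagens fell in 5 to 8, and the fall was larger than in the other blocks for part of the list. Of 18 collagen genes tested, 14 were called lower and 0 higher in 5 to 8 with a median log2 difference of -0.73 (16 without with AZA 5), against a background of 3.36% called lower. Scaled by spike-in RNAs, the list had a median of -0.47 and 0 of its genes were called. The medians over the same genes in the fit of all 32 libraries were -0.49, -0.14 and -0.32 in 1 to 4, 9 to 12 and 13 to 16 and -0.72 in 5 to 8. In the 24 libraries outside the block 11 of 18 were called lower with a median of -0.30. The contrast of blocks called 8 of 18 lower, 7 without with AZA 5, against 1.81% of all genes, and 0 with spike-in scaling. The collagen medians were among the values that chose the block, so these counts are a description.

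Col1a2 (chr6:4504814-4541544, plus strand), a chain of the main fibrillar collagen, was at 2207, 2196, 2114 and 2126 CPM without and 1169, 1258, 1177 and 1204 CPM with azacitidine. Each treated library was below each untreated one, and the spread within each group was small. The log2 difference was -0.85 ± 0.07 in 5 to 8 and -0.20, -0.25 and -0.33 in the other blocks, and the contrast of blocks was -0.59 ± 0.07 (edgeR adjusted p = 3.86e-07). Its partner chain Col1a1 was at 1118, 1218, 1212 and 1031 and 666, 656, 667 and 682 CPM, with a contrast of blocks of -0.55 ± 0.11 (adjusted p = 0.0012). Col3a1, the fibrillar collagen of soft tissue, went from 4349, 4363, 4398 and 3517 to 2380.5, 2254, 2081 and 2107 CPM (contrast of blocks -0.34 ± 0.08, adjusted p = 0.0062). Without AZA 8 was the lowest untreated library for both Col1a1 and Col3a1. The untreated levels of Col1a1, Col1a2 and Col3a1 did not pass the test against the other untreated blocks (adjusted p = 0.080, 0.16 and 0.33).

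Other matrix genes moved in both directions. The list of matrix glycoproteins and proteoglycans had 13 falls and 3 rises among 36 genes (median -0.25, and 0.03 with spike-in scaling). For enzymes and inhibitors that process or remodel matrix the counts were 13 and 2 of 33 (median -0.21, and 0.05 with spike-in scaling). Over all genes 3.36% fell and 3.25% rose. The matrix remodelling medians were among the values that chose the block. Postn, a matrix protein that cross-links collagen, was at 134, 150.3, 109 and 143 CPM without and 49, 58.3, 59.6 and 40.1 CPM with the drug. All treated libraries were well below the untreated ones. Its log2 difference was -1.35 ± 0.12 in 5 to 8 and 0.38, 0.35 and -0.13 in the other blocks, a contrast of blocks of -1.55 ± 0.17 (edgeR adjusted p = 4.12e-08). The basement membrane protein Nid2 went from 259.6, 249, 235 and 216 to 98.6, 138, 124 and 142 CPM (contrast of blocks -1.02 ± 0.14, adjusted p = 3.94e-06). Both started higher than in the other untreated blocks, by 0.71 ± 0.11 and 0.70 ± 0.10 on the log2 scale (adjusted p = 4.03e-05 and 3.58e-06).

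Fbln2, an elastic fibre protein, was at 1055, 1277, 1266 and 1047 CPM without and 773, 843, 856 and 834 CPM with the drug, with no overlap. Its contrast of blocks was not called (adjusted p = 0.080). Among proteases, the gelatinase Mmp9 went from 21.9, 22.8, 20.9 and 13.2 to 3.06, 4.13, 8.95 and 7.55 CPM and was called in the contrast of blocks (-1.27 ± 0.31, adjusted p = 0.011). Adamts1, Adamts2 and the membrane protease Mmp14 fell by 0.75, 0.97 and 0.62 on the log2 scale in 5 to 8 and were not called in it (adjusted p = 0.20, 0.23 and 0.46). Mmp14 varied widely elsewhere, from 104 to 727 (median 186) CPM in the other untreated libraries.

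Of 24 contractile genes and targets of serum response factor 7 fell and 0 rose (median -0.16), where 3.36% of all genes fell. Scaled by spike-in RNAs, its median was 0.11 and 0 were called. The smooth muscle actin Acta2 was at 419, 426, 413 and 483 CPM without and 209.9, 251, 237 and 261 CPM with azacitidine. The treated libraries lay far below the untreated ones, while the differences in the other blocks were 0.03, -0.04 and -0.14. Between blocks the contrast was -0.81 ± 0.10 (edgeR adjusted p = 4.74e-07). The myosin light chain Myl9 and the actin-binding Tagln fell by 0.65 and 1.63 on the log2 scale, and their contrast of blocks was not called (adjusted p = 0.23 and 0.33). Of 15 tested targets of YAP and TGF-beta signalling Ankrd1 rose by 0.34 ± 0.10 and 2 fell, Amotl2 by 0.46 and Axl by 0.26. The call of Ankrd1 was lost in 9 of 19 alternative settings and that of Amotl2 in 7 of 19. Axl was not called without with AZA 5 and its difference was 0.02 with spike-in scaling.

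**Figure D2:**
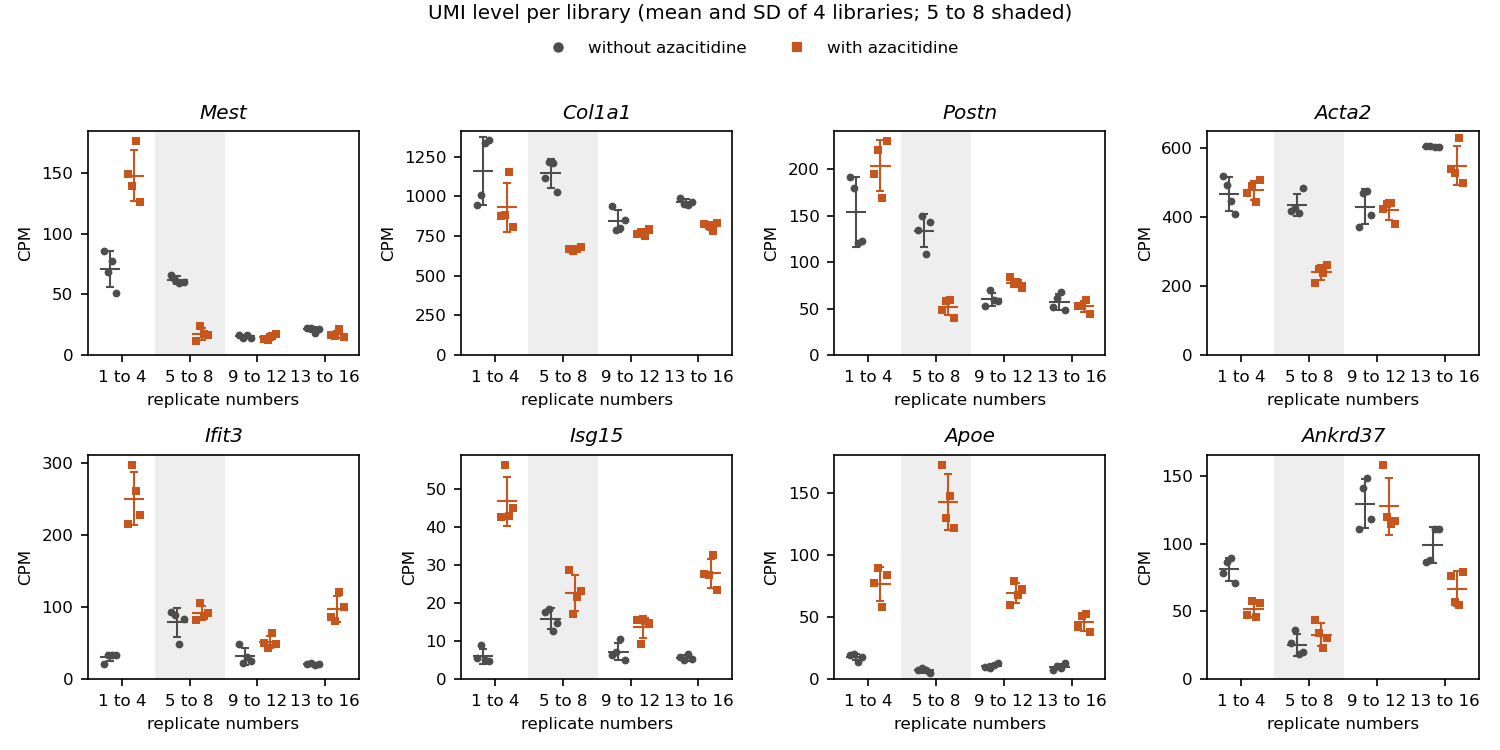
CPM of 8 genes in every library by block of 4 replicate numbers, with circles for libraries without and squares for libraries with azacitidine, and bars for the mean and SD of 4 libraries. In 5 to 8 (shaded) the treated libraries of Mest, Col1a1, Postn and Acta2 lie below the untreated ones, those of Apoe above, and Ifit3 overlaps; untreated Ankrd37 is lowest in 5 to 8.

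The imprinted gene Mest, expressed from the paternal copy in growing mesenchyme, was among the largest falls. Mest (chr6:30723547-30748465, plus strand) was at 66.2, 62.2, 59.6 and 59.9 CPM without and 11.2, 23.7, 17.2 and 16.9 CPM with the drug, -1.85 ± 0.15 on the log2 scale. The other blocks gave 1.01, -0.07 and -0.28, so that the difference in 1 to 4 had the opposite sign, and the contrast of blocks was -2.06 ± 0.19 (edgeR adjusted p = 9.66e-10). Untreated Mest was also higher in 5 to 8 than in the mean of the other blocks, by 1.11 ± 0.12 (adjusted p = 5.07e-08), although 1 to 4 lay in the same range, 70.8 ± 15 CPM (SD, n = 4) against 62 ± 3.06. Of 10 imprinted genes tested 2 fell and 2 rose. The non-coding H19 went from 16.6, 16.5, 15.2 and 9.34 to 19.9, 30.4, 31.8 and 31.4 CPM and Rian from 17.1, 12.7, 18.4 and 10.1 to 25.5, 28.4, 25.2 and 31.4, and neither was called in the contrast of blocks (adjusted p = 0.15 and 0.21). Copg2 lies over the end of Mest on the other strand, and whether reads were counted by strand is not given in the sources used here. The same holds for other named genes that overlap a protein-coding gene on the other strand, among them Syce2 (Gcdh), Tagln (Pcsk7), Ddit3 (Mars), Fosl1 (Ccdc85b), Hsd11b1 (Lamb3), Pfkp (Pitrm1), Manf (Dcaf1), Nid2 (Rtraf), Cdc45 (Ufd1) and Pdia6 (Atp6v1c2). The window shown, 1 of 3 RefSeq promoter windows of Mest (chr6:30737800-30738099, plus strand, GRCm38.p6), is the counterpart to Krt8 for a gene that fell, with its 17 CG dinucleotides in capitals.
Mest promoter: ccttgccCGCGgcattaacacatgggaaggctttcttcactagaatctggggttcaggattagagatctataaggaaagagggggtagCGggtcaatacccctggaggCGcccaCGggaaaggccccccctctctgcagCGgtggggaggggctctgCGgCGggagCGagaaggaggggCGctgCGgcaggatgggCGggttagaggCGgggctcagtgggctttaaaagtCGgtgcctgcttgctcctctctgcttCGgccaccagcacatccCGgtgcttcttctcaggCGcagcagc

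Other large falls were of genes of metabolism and of secreted or surface proteins. Il1rn, the antagonist of the interleukin 1 receptor, was at 436, 495, 450.0 and 431 CPM without and 148, 176, 194 and 175 CPM with azacitidine. None of the other blocks showed a fall (0.16, 0.03 and 0.15), and the contrast of blocks was -1.50 ± 0.11 (edgeR adjusted p = 1.45e-12). The aldehyde dehydrogenase Aldh3a1 went from 47.3, 48.2, 42.5 and 61.5 to 11.8, 20.6, 15.1 and 19.8 CPM (contrast -1.72 ± 0.25, adjusted p = 2.29e-05). The aldehyde oxidase Aox3 and the epoxide hydrolase Ephx2 fell by 1.61 and 2.13, with contrasts of blocks of -1.89 ± 0.25 and -1.63 ± 0.34 (adjusted p = 1.16e-06 and 0.0020). For Ephx2 the other blocks gave -0.38, -1.0 and -0.09, all of the same sign. The complement regulator Cd55, the chemokine Ccl9 and Rspo3, which amplifies Wnt signals, fell by 1.48, 1.45 and 1.44, and all 3 were called in the contrast of blocks (-1.52, -1.34 and -1.77; adjusted p = 0.0011, 0.010 and 0.0011).

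Genes by which stroma acts on blood stem cells moved in both directions. Of 24 haematopoietic niche factors 7 fell and 4 rose in 5 to 8 (median 0.14), where 3.36% of all genes fell and 3.25% rose. In the other 24 libraries 5 rose and 0 fell (median 0.24), where 4.71% of all genes rose and 3.78% fell. The contrast of blocks called 6 lower and 1 higher of 26, and 6 and 0 without with AZA 5. Over all genes it called 1.81% lower and 0.91% higher. With spike-in scaling 0 of the list were called, in 5 to 8 and between blocks. Cxcl12, the chemokine that keeps stem cells in their niche, was at 963, 806, 874 and 909 CPM without and 615, 567, 529 and 569 CPM with the drug. The groups were far apart, while the other blocks gave differences of 0.17, 0.04 and -0.06. Its contrast of blocks was -0.69 ± 0.10 (edgeR adjusted p = 7.49e-06). The Wnt antagonist Sfrp1 went from 199.9, 221, 234 and 241 to 82.7, 124, 105 and 116 CPM (-1.43 ± 0.27, adjusted p = 0.0018). Igfbp4, which binds insulin-like growth factors, fell by 0.68 and was not called in the contrast of blocks (adjusted p = 0.20).

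Interferon-stimulated genes rose less in 5 to 8 than in the other blocks, and their untreated levels were higher. In 5 to 8, 14 of 45 tested were called higher and 0 lower (21 without with AZA 5). The median log2 difference was 0.33. The fit of the other 24 libraries, with more libraries per group, had 37 of 40 higher with a median of 1.28. Tested 4 against 4, 41 of 51 were called higher in 1 to 4 and 35 of 41 in 13 to 16. In 9 to 12 the count was 11 of 37, a share close to that in 5 to 8. The medians over 49 genes were 1.94, 0.66 and 1.42 in 1 to 4, 9 to 12 and 13 to 16 and 0.34 in 5 to 8. The contrast of blocks called 23 of 49 lower and 0 higher, also without with AZA 5, against 1.81% of all genes, and 2 lower with spike-in scaling. The interferon medians too were among the values that chose the block, so these counts are a description. In untreated cells 24 of 49 were higher in 5 to 8 than in the mean of the other blocks and 0 were lower (median 0.58). That contrast of untreated cells called 522 of 10440 genes in all, 5%, with 261 (2.5%) in each direction, of which 504, 4.83%, lay outside the other 3 blocks (2.41% on each side). With library totals alone it gave 371 higher and 207 lower, with spike-in scaling 27 and 1, without the library without AZA 8 327 in all, and without numbers 13 to 16 338. In treated cells 12 of 49 were lower and 1 higher in 5 to 8, in a contrast that called 1567 genes, 15% (8.1% higher, 6.91% lower; 971 in all without with AZA 7). These contrasts share libraries, so their values are given side by side and not as separate support.

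Ifit3 (chr19:34583531-34588731, plus strand) belongs to a family that binds viral RNA. It was at 93.4, 88.8, 48.8 and 84.1 CPM without and 82.7, 106, 88.1 and 91.2 CPM with the drug in 5 to 8, where the groups overlap. The 12 other untreated libraries ran from 20.1 to 48.9 (median 23.7), and the 12 other treated ones from 43.7 to 298 (median 93.2). The untreated level in 5 to 8 was higher by 1.57 ± 0.16 (edgeR adjusted p = 5.07e-08), and the contrast of blocks was -1.80 ± 0.21 (adjusted p = 7.27e-07). Its neighbouring copy Ifit3b, with which it can share reads, gave 1.53 ± 0.23 and -1.95 ± 0.29. The ubiquitin-like Isg15 was at 17.7, 18.4, 12.7 and 14.8 and 28.6, 17, 21.7 and 23.2 CPM, with 1.30 ± 0.20 for the untreated level (adjusted p = 1.54e-05) and -1.51 ± 0.24 for the contrast of blocks (adjusted p = 4.13e-05).

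The same was seen for Ifi44, 10.1, 6.34, 5.7 and 7.78 CPM without and 5.62, 7.22, 6.83 and 8.72 CPM with the drug, where the other untreated libraries ran from 0.59 to 3.38 (median 1.75). Its contrast of blocks, -2.72 ± 0.35 (edgeR adjusted p = 7.27e-07), had the lowest value among the named genes. The guanylate-binding Gbp3 gave 1.30 ± 0.20 untreated and -1.69 ± 0.25 between blocks (adjusted p = 2.23e-05 and 1.12e-05), and Ifit2 1.28 ± 0.26 and -0.94 ± 0.31 (adjusted p = 0.0011 and 0.10), the second not called. Ifi27l2a gave -1.97 ± 0.46 between blocks (adjusted p = 0.0095), and its untreated level was not called (adjusted p = 0.64). Other members of the list rose with azacitidine in 5 to 8. The chemokine Ccl5 went from 37.3, 33.6, 42.5 and 39.7 to 95, 91.3, 94.5 and 93.5 CPM with no overlap, 1.29 ± 0.11 on the log2 scale, and was not called between blocks (adjusted p = 0.15). Ifit1 went from 85.7, 76.1, 55.8 and 63.8 to 118, 142, 123 and 130.1 CPM, and its contrast of blocks was -1.26 ± 0.19 (adjusted p = 3.22e-05). Oasl1 went from 1.77, 0.63, 0.63 and 0 to 12.3, 7.74, 7.07 and 10.5 CPM.

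The promoters of Ifit3 (chr19:34583279-34583578, plus strand) and Isg15 (chr4:156200769-156201068, minus strand; both RefSeq, GRCm38.p6) are printed because these genes had some of the largest differences in untreated level. Capitals mark matches, on either strand and with overlaps, to GAAA followed by any 2 bases and a further GAAA, the core that interferon regulatory factors are known to bind. Such a match is in 3.44% of the 32851 windows and in 23 of the 43 windows of interferon-stimulated genes, 53.5%; it is a description of the letters, not a binding site.
Ifit3 promoter: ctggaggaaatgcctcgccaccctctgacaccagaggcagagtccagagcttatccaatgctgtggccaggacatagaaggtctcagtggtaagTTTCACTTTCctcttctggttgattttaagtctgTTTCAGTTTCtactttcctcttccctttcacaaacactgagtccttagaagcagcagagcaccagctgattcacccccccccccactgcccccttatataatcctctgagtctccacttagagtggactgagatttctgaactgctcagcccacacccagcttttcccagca
Isg15 promoter: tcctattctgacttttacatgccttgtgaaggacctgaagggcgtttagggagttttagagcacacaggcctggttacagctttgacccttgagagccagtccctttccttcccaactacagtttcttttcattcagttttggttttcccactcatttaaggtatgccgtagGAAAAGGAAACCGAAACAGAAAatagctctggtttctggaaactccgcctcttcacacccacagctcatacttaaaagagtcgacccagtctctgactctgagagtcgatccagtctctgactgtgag

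Antigen presentation by class I molecules followed in smaller steps. Of 14 genes 4 rose in 5 to 8 (median 0.22), where 3.25% of all genes did. In the other 24 libraries 11 rose (median 0.70), where 4.71% of all genes did. The contrast of blocks called 4 lower, 1 without with AZA 5, against 1.81% of all genes. With spike-in scaling 1 of the 14 was called higher in 5 to 8 and 0 were called between blocks. The class I chain H2-D1 was at 419.9, 379, 342 and 514 CPM without and 584, 791, 754 and 858 CPM with the drug. With AZA 5 was the lowest treated library and lay nearest to the untreated ones. For H2-D1 the contrast of blocks was -0.57 ± 0.11 (edgeR adjusted p = 0.0011) and the untreated level was higher by 0.48 ± 0.08 (adjusted p = 6.67e-05). H2-K1, which can share reads with H2-D1, rose by 0.96 ± 0.09 and the immunoproteasome subunit Psmb8 by 2.53 ± 0.23; neither was called between blocks (adjusted p = 0.36 and 0.77). Of 17 tested genes of NF-kB and inflammation the chemokine Ccl2 rose (0.28 ± 0.08) and the complement component C3 fell (-0.43 ± 0.12), calls lost in 11 and 9 of 19 alternative settings. Untreated C3 was lower in 5 to 8, 88.7, 88.8, 105 and 65.4 CPM, than in the other blocks, 106 to 211 (median 138) (adjusted p = 4.07e-07).

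**Figure D3:**
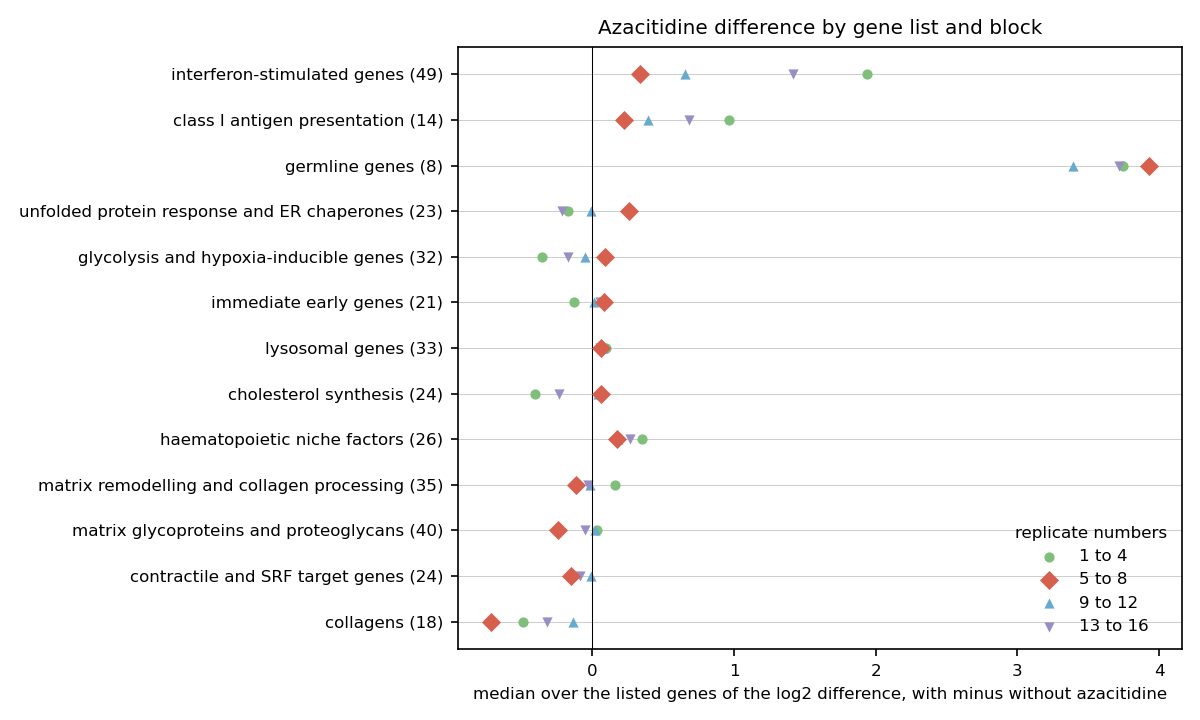
Median over the genes of a list (number in brackets) of the log2 difference with minus without azacitidine, by block. In 5 to 8 (diamonds) the interferon median, 0.34, and the collagen median, -0.72, are the lowest of the 4 blocks, and that of the unfolded protein response, 0.26, is the highest. Interferon, collagen and matrix remodelling medians were among the values that chose the block.

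The untreated cells of 5 to 8 also stood apart in genes that low oxygen induces. Of 32 genes of glycolysis and the hypoxia response 22 were lower and 0 higher in untreated 5 to 8 than in the mean of the other blocks (median -0.56), where 2.5% of all genes were called lower. Scaled by spike-in RNAs, the list had a median of -0.14, and 1 of the 32 was called lower. Azacitidine raised 5 of 31 in 5 to 8 (median 0.10), where 3.25% of all genes rose, and 6 without with AZA 5 (median 0.02). In the other 24 libraries 13 fell and 1 rose (median -0.18), where 3.78% of all genes fell and 4.71% rose. Tested 4 against 4, 8 fell and 1 rose in 1 to 4, 0 and 2 in 9 to 12, and 2 and 1 in 13 to 16. Over all genes 0.544%, 0.281% and 1.65% fell in those blocks and 1.96%, 1.04% and 2.26% rose. The medians of the list in the fit of all 32 libraries were -0.35, -0.06 and -0.175 there and 0.09 in 5 to 8. The contrast of blocks called 5 of 32 higher and 0 lower (median 0.31), against 0.91% of all genes, and 3 without with AZA 5 (median 0.19). With AZA 5 had a mean log2(CPM + 1) of 7.22 over the list, with AZA 6 to 8 6.77 to 6.86 and the untreated libraries 6.46 to 6.74. The part of with AZA 5 in these results beyond those counts was not tested.

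Ankrd37 (chr8:45996902-46005707, minus strand), a small protein induced by hypoxia, was at 26.6, 36.1, 18.4 and 20.2 CPM without and 43.4, 34, 23.3 and 30.2 CPM with azacitidine. The groups overlap and all 8 libraries lay below the other untreated libraries, 70.7 to 149 (median 100.1). Its untreated level was lower by 2.00 on the log2 scale (SE 0.16, edgeR adjusted p = 2.35e-10), and the contrast of blocks was not called (adjusted p = 0.058). The glucose transporter Slc2a1 was at 164, 193, 180.0 and 161 and 282, 249, 232 and 225 CPM, with an untreated level of -0.58 ± 0.07 against the other blocks (adjusted p = 7.65e-07) and a contrast of blocks of 0.66 ± 0.10 (adjusted p = 2.21e-05). The phosphofructokinase Pfkp went from 123, 139.5, 133 and 108 to 236, 175, 188 and 174 CPM (untreated -0.47 ± 0.08, between blocks 0.68 ± 0.11; adjusted p = 1.37e-04 and 5.79e-05). Ndrg1 rose by 0.44 ± 0.08 in 5 to 8 and was not called between blocks (adjusted p = 0.39).

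The promoter of Ankrd37 (chr8:45999801-46000100, minus strand, RefSeq, GRCm38.p6) is printed because this gene had the largest difference in untreated level of its list among the named genes. Capitals mark the 2 matches to ACGTG on either strand, the core of the element that hypoxia-inducible factors are known to bind, which is in 19.6% of all windows and in 23 of the 45 windows of the list, 51.1%. Ufsp2 and Lrp2bp lie over Ankrd37 on the other strand.
Ankrd37 promoter: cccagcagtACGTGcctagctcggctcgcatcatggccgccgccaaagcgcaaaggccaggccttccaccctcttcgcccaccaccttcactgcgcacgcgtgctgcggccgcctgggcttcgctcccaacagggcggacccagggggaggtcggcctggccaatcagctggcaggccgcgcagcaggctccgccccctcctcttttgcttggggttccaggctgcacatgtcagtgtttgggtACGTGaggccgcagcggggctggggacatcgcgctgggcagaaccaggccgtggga

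Cholesterol synthesis and lysosomes differed between untreated blocks as well. Of 24 genes of cholesterol synthesis 13 were lower in untreated 5 to 8 and 0 higher (median -0.39, and 0.03 with spike-in scaling). Over all genes 2.5% were called lower untreated. Azacitidine raised 2 of the list in 5 to 8, where 3.25% of all genes rose. It lowered 7 in the other libraries, where 3.78% of all genes fell. Tested 4 against 4, 2 fell in 1 to 4, 0 in 9 to 12 and 4 in 13 to 16, where 0.544%, 0.281% and 1.65% of all genes fell. The medians of the list in the fit of all 32 libraries were -0.40, 0.04 and -0.24 in those blocks and 0.06 in 5 to 8. Numbers 9 to 12 were thus close to 5 to 8. The contrast of blocks called 4 higher, 2 without with AZA 5, against 0.91% of all genes. The oxidase Msmo1 was at 512, 608, 577 and 543 CPM without and 716, 674, 727 and 650.1 CPM with the drug (contrast of blocks 0.54 ± 0.09, edgeR adjusted p = 1.65e-04), and Dhcr7 had a difference of 0.43 ± 0.14 whose call was lost in 17 of 19 alternative settings. Of 33 lysosomal genes 17 were higher and 0 lower in untreated 5 to 8 (median 0.29), where 2.5% of all genes were called higher. The drug raised 5 and lowered 1 of 32 in 5 to 8, where 3.25% of all genes rose and 3.36% fell. The protease Lgmn rose from 215, 226, 241 and 237 to 303, 316, 306 and 284 CPM. Cd68 rose from 10.6, 12.7, 10.1 and 12.4 to 24.5, 21.7, 25.7 and 22.7 CPM. Both genes were higher untreated than in the other blocks (0.42 ± 0.07 and 0.75 ± 0.18, edgeR adjusted p = 1.37e-04 and 0.019).

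Genes of the unfolded protein response, which cells raise when folding in the endoplasmic reticulum falls behind, had a higher azacitidine difference in 5 to 8. Of 23 genes 6 rose and 0 fell (median 0.26), where 3.25% of all genes rose, and 10 rose without with AZA 5. In the other 24 libraries 0 rose and 5 fell (median -0.09), where 3.78% of all genes fell. The contrast of blocks called 7 of 23 higher and 0 lower, 8 without with AZA 5, against 0.91% of all genes. With spike-in scaling 0 of the 23 were called, in 5 to 8 and between blocks. Untreated, the list's median against the other blocks was 0.10. Pdia6, a disulfide isomerase, was at 887, 864, 769 and 964 CPM without and 1111, 1312, 1181 and 1316 CPM with the drug. Its contrast of blocks was 0.62 ± 0.10 (adjusted p = 5.50e-05). The secreted chaperone Manf went from 554, 447, 425 and 584 to 568, 706, 641 and 722 CPM and Herpud1, which helps to clear misfolded proteins, from 587, 541, 522 and 689.6 to 608, 779, 789.9 and 819.8. In both, with AZA 5 lay within the untreated range and 6 to 8 above it. Their contrasts of blocks were 0.58 ± 0.11 and 0.45 ± 0.11 (adjusted p = 8.58e-04 and 0.015). Within 5 to 8 the call of Manf was lost in 6 of 19 and that of Herpud1 in 8 of 19 alternative settings. Sel1l rose by 0.43 ± 0.10 and was not called between blocks (adjusted p = 0.37).

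Of 30 genes of the ATF4 amino acid stress response 5 rose and 0 fell in 5 to 8, where 3.25% of all genes rose. Leaving out with AZA 5 gave 12 rises. Between blocks 4 were called higher, against 0.91% of all genes. With spike-in scaling 0 were called in either comparison. The stress factor Ddit3 went from 716, 694, 614 and 911 to 940.2, 1029, 944 and 1036 CPM and started above the other blocks, by 0.37 ± 0.08 (edgeR adjusted p = 0.0015). The asparagine-tRNA ligase Nars rose by 0.39 ± 0.08. Neither was called between blocks (adjusted p = 0.21 and 0.055). Of 18 immediate early genes 7 rose and 1 fell, where 3.25% of all genes rose and 3.36% fell. With spike-in scaling 0 of the 18 were called. Untreated, 5 of 21 were lower than in the other blocks (median -0.34, and 0.09 with spike-in scaling). Over all genes 2.5% were called lower untreated. The AP-1 subunit Fosl1 was at 131, 159.8, 161 and 137 CPM without and 198, 262, 252 and 239 CPM with the drug. Its untreated level was lower by 0.75 (adjusted p = 5.90e-08), and its contrast of blocks was 0.58 ± 0.11 (adjusted p = 9.95e-04). Myc rose by 0.47 ± 0.09 (contrast of blocks 0.54 ± 0.12, adjusted p = 0.0056), and Ier3 rose by 0.75 ± 0.13 and was not called (adjusted p = 0.59).

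**Figure D4:**
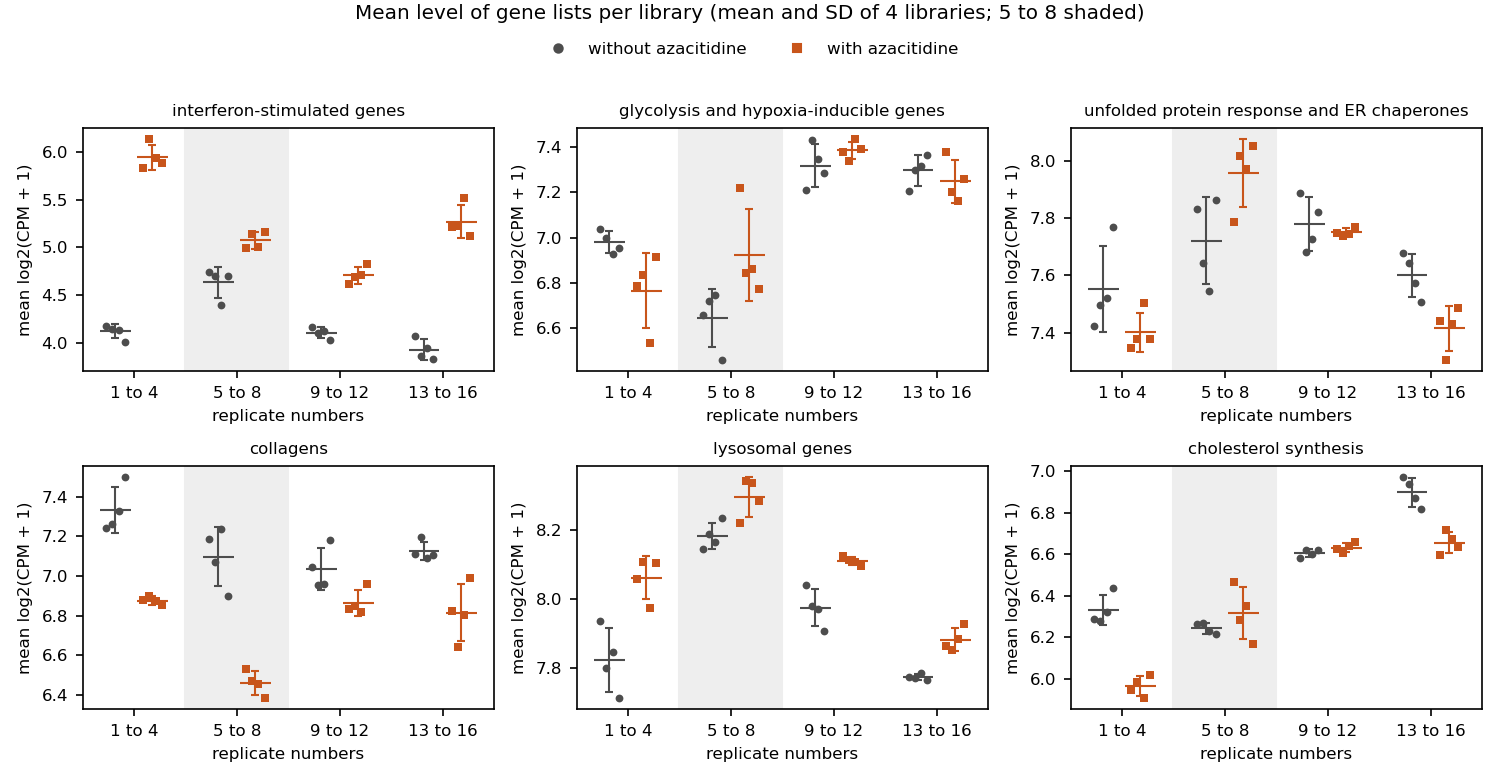
Mean log2(CPM + 1) over the genes of 6 lists in every library, by block, with circles for libraries without and squares for libraries with azacitidine and bars for the mean and SD of 4 libraries. Untreated 5 to 8 (shaded) is highest for interferon-stimulated and lysosomal genes and lowest for glycolysis and hypoxia, and with AZA 5, the leftmost square in the shaded column, is the highest treated library there for glycolysis and hypoxia at 7.22.

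Of 39 DNA replication genes 3 rose with the drug, where 3.25% of all genes did, too small a count to be read as a result about the list (Cdt1 0.52 ± 0.11, Cdc45 0.72 ± 0.18 and Prim2 0.65 ± 0.20), and Cdc45 was called between blocks (0.79 ± 0.20, edgeR adjusted p = 0.023), though not without with AZA 5 (adjusted p = 0.063). The call of Prim2 was lost in 12 of 19 alternative settings. The 33 mitosis genes had a median log2 difference of 0.15 in 5 to 8. Untreated, 8 of 34 were higher and 0 lower in 5 to 8 than in the other blocks, against 2.5% of all genes higher. Of 25 p53 targets the cell cycle inhibitor Cdkn1a rose, from 229, 237, 229 and 237 to 329.9, 324, 339 and 386 CPM, the p53 ligase Mdm2 rose by 0.27 ± 0.08 and Sesn1 fell by 0.76. The call of Mdm2 was lost in 8 of 19 alternative settings. Of 14 genes of the DNA methylation machinery Mbd1 alone was called, 0.41 ± 0.12, a call lost in 9 of 19. Dnmt1, the maintenance methyltransferase and main target of the drug, was at 44.4, 45, 42.5 and 38.1 CPM without and 34.2, 46.4, 41 and 45.9 CPM with it. Its groups overlap, as do those of Dnmt3a, 8.87, 6.34, 8.87 and 6.23 and 6.64, 7.22, 4.71 and 4.65 CPM.

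Smaller lists gave single calls in 5 to 8, where 3.25% of all genes rose and 3.36% fell. Metallothionein Mt2 went from 636, 654, 660.4 and 567 to 1205, 926, 978 and 914 CPM and was called between blocks (0.66 ± 0.14, edgeR adjusted p = 0.0029), as was the glutathione transferase Gstm2, which fell (-0.38 ± 0.09, adjusted p = 0.0089), while Gsta2 rose by 1.68 ± 0.44. In that list of 25 genes 3 rose and 2 fell. The call of Gsta2 in 5 to 8 was lost in 7 of 18 alternative settings. Of 21 heat shock proteins Hspb1, Hspa4l and Hspa9 rose (1.15 ± 0.21, 0.61 ± 0.12 and 0.27 ± 0.08), and Hspa9 was called between blocks (adjusted p = 0.046), though its call in 5 to 8 was lost in 12 of 19 alternative settings. In the lipid list the lipase Lpl fell (-0.52 ± 0.09, contrast of blocks -0.45 ± 0.10, edgeR adjusted p = 0.0066). Plin2, which coats lipid droplets, rose by 0.29 ± 0.08, a call lost in 8 of 19 alternative settings. The bone protein Bglap rose from 0.59, 1.27, 1.9 and 1.56 to 7.15, 10.3, 7.07 and 6.39 CPM. Of 7 mitochondrially encoded mRNAs mt-Nd1 and mt-Nd5 fell (-0.31 ± 0.08 and -0.51 ± 0.10; list median -0.20, and 0.09 with spike-in scaling). The histone genes H3f3a and H2afx fell (-0.94 ± 0.25 and -0.32 ± 0.09) among 11 of that list, whose copies can share reads (median -0.06, and 0.21 with spike-in scaling). The calls of H3f3a and H2afx were lost in 8 of 19 and 9 of 19 alternative settings, and that of mt-Nd1 in 6 of 19.

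Several of the largest contrasts of blocks were of genes with few UMIs. Prss22, a serine protease, was at 1.77, 0, 2.54 and 0.78 CPM without and 4.09, 8.25, 7.3 and 4.65 CPM with the drug (2.00 ± 0.56, edgeR adjusted p = 0.038), and its untreated level was below the other blocks (-2.24 ± 0.47, adjusted p = 0.0014). Alox5ap, which activates a lipoxygenase, the sugar transporter Slc2a6 and the apoptosis repressor Nol3 gave contrasts of 1.48 ± 0.43, 1.40 ± 0.39 and 1.02 ± 0.28 (adjusted p = 0.048, 0.037 and 0.029). These calls were lost in 15 of 19, 12 of 19 and 9 of 21 alternative settings, without with AZA 5 among them for Alox5ap. The call of Prss22 between blocks was lost in 8 of 19. Cox7a1, a subunit of cytochrome oxidase, was at 19.9, 4.64, 6.36 and 4.65 CPM with the drug, and its contrast of 1.55 dropped to 0.90 without with AZA 5 (adjusted p = 0.029 and 0.25). On the other side, the lipocalin Apod had differences of 2.85, 0.45 and 1.80 in the other blocks and overlapped in 5 to 8, at 17.7, 20.3, 15.8 and 20.2 CPM without and 15.3, 13.4, 17.9 and 20.3 CPM with the drug (contrast -1.83 ± 0.28, adjusted p = 2.29e-05). The sulfotransferase Chst2 and the cornified envelope protein Sprr2a1, which has a near copy beside it, gave -2.04 ± 0.49 and -1.91 ± 0.34 (adjusted p = 0.011 and 2.28e-04).

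Wt1, a transcription factor of mesothelium and kidney, was at 4.14, 4.44, 6.34 and 2.34 CPM in untreated 5 to 8 and at 5.05 to 16.2 (median 12.5) in the other untreated libraries, -1.49 ± 0.28 on the log2 scale (edgeR adjusted p = 4.41e-04). Hsd11b1, which activates glucocorticoids, was at 7.1, 6.98, 3.17 and 5.45 CPM (-1.49 ± 0.27, adjusted p = 2.33e-04). The protease inhibitor Serpina3m, the cytochrome P450 Cyp2f2, the sialic acid receptor Siglecg and the desmosomal Pkp3 were lower (-1.63, -1.71, -1.47 and -1.43, edgeR adjusted p = 0.0020, 0.045, 0.041 and 0.042). Of these, Cyp2f2 lost its call in 8 of 16, Siglecg in 8 of 11 and Pkp3 in 9 of 15 alternative settings. Tnnt2, a troponin, and the semaphorin receptor Plxnd1 were higher (1.15 ± 0.26 and 1.25 ± 0.30, adjusted p = 0.0037 and 0.0062).

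Some markers of blood and epithelial cells were low in 5 to 8 and higher with the drug, while others stayed near 0 in both groups. The summed level of 6 blood markers was 13.3 to 20.2 CPM without and 38.2 to 42.6 CPM with azacitidine, mostly Cd53 (34 and 132 UMIs) and Cd68 (70 and 238). Fcer1g had 0 and 32 UMIs, Csf1r had 4 and 5, and Ptprc and Adgre1 were at or near 0. The other blocks summed to 23.4 to 39.5 CPM with the drug. Cd14, a receptor for bacterial lipid, was called higher in 5 to 8 as well, from 5.91, 8.24, 5.7 and 2.34 to 19.4, 12.4, 13.4 and 7.55 CPM, and Cd53, Cd68 and Cd14 were not called between blocks (edgeR adjusted p = 0.65, 0.92 and 0.48). The 3 epithelial markers summed to 0 to 1.18 CPM without and 5.18 to 8.68 CPM with the drug, nearly all of it Krt19. Summed stromal markers went from 5025 to 5472 CPM without to 3686 to 3907 CPM with azacitidine, a list that holds the collagen chains Col1a1 and Col1a2. Of 13 mesenchymal stromal markers tested 5 fell and 1 rose (median -0.30, and -0.04 with spike-in scaling). Over all genes 3.36% fell and 3.25% rose. The contrast of blocks called 5 of 14 lower and 0 higher, against 1.81% of all genes lower. The receptor Pdgfrb was at 189 to 215 CPM without and 137 to 177 CPM with the drug, with no overlap, while Vim was at 1518 to 1652 and 1519 to 1771 CPM, with overlap. The part of these markers in the results above was not tested.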

How the data were processed

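Per the labels' protocols, total RNA was column-purified, and cDNA was barcoded, pooled and amplified with UMIs. STAR 2.4.0 and bedtools 2.17.0 on build mm10 are named in the submitters' processing notes; annotation, UMI collapsing and strand are not given in the sources used here. The deposited values are counts, whole UMIs per gene and library, with no normalization found. The 68 spike-in rows (0.106% of UMIs) stayed out of library sizes and tests. Symbols came from GENCODE M21 (21506 of 21829 genes). EdgeR 4.0.16 in R 4.3.3 (robust quasi-likelihood, TMM, default filter, two-sided) gave all tests; SEs come from the fold change and F statistic. The contrast within 5 to 8 used 8 libraries, those between blocks all 32 as 8 cells. Named genes were the 10 largest called changes each way in 5 to 8 with a mean of at least 5 UMIs, the 8 largest each way of the other contrasts outside the other blocks, up to 3 called members per list by p, and Dnmt1 and Dnmt3a; predicted and ribosomal protein genes were not named, and 1 gene the rule names is not reported here. Members and lists were chosen with earlier results of these data known. Tests were checked on simulated data. Alternatives included DESeq2 1.42.0, limma-voom 3.58.1, filters, scalings, thinning, leaving out libraries and blocks; list counts without with AZA 5 and list medians under 4 scalings were added after seeing the data. Python 3.11.15 and matplotlib 3.10.9 were used.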

Additional observations from a re-analysis of the deposited data

Results flagged for a closer look

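In groups of 4, a library was marked where its gap to the nearest other divided by the group's range exceeded Dixon's 95% critical value. Of 240 groups of 4 (116 named genes and 4 library measures, with and without the drug) 24 were marked, where chance marks about 1 in 20. The library with AZA 5 accounted for 9 of the 24. Its values were 16.3 CPM for Clec1a, 19.9 for Cox7a1, 27.1 for Gbp3, 285 for Lum and 425 for Plin2, the highest of the treated libraries, and 5189.5 for Gpnmb, 19.9 for H19, 24 for Psmb8 and 129.7 for Sel1l, the lowest. Among the other treated libraries, with AZA 7 had the highest total, 4218313 UMIs, with 46.2 CPM for Dhcr7 and 6.36 for Gpx3, with AZA 8 had 58.1 for Hspa4l, and with AZA 6 had 4.13 for Tnnt2.

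Without the drug, replicate 8 was marked 7 times: 3517 CPM for Col3a1, 2349 for Gpnmb, 6.23 for Gsta2, 0.78 each for Gpx3, Rhox2g and Syce2, where it held the only UMI, and 0 for Rhox2h. Replicate 7 had 4.44 for Cyp2f2 and 0.63 for Pkp3, and replicate 6 had 12.7 for Ifi27l2a.

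The azacitidine difference of 50 of the 116 named genes differed between 5 to 8 and the mean of the other blocks (edgeR, adjusted p under 0.05 in the fit of all 32 libraries). By the naming rule, 16 of them were picked from this very contrast. The rest were picked for calls within 5 to 8 or in the untreated contrast, which share libraries with it. Over all genes 284 of 10440, 2.72%, were called, and nothing is read from the higher share among named genes. On the log2 scale 30 were lower in 5 to 8: Ifi44 -2.72, Mest -2.06, Chst2 -2.04, Ifi27l2a -1.97, Ifit3b -1.95, Sprr2a1 -1.91, Aox3 -1.89, Apod -1.83, Ifit3 -1.80, Rspo3 -1.77, Aldh3a1 -1.72, Gbp3 -1.69, Ephx2 -1.63, Postn -1.55, Cd55 -1.52, Isg15 -1.51, Il1rn -1.50, Sfrp1 -1.43, Ccl9 -1.34, Mmp9 -1.27, Ifit1 -1.26, Nid2 -1.02, Acta2 -0.81, Cxcl12 -0.69, Col1a2 -0.59, H2-D1 -0.57, Col1a1 -0.55, Lpl -0.45, Gstm2 -0.38 and Col3a1 -0.34. The other 20 were higher in 5 to 8: Prss22 2.00, Apoe 1.95, Cox7a1 1.55, Alox5ap 1.48, Slc2a6 1.40, Lum 1.31, Slpi 1.20, Nol3 1.02, Cdc45 0.79, Pfkp 0.68, Slc2a1 0.66, Mt2 0.66, Pdia6 0.62, Gpnmb 0.61, Fosl1 0.58, Manf 0.58, Msmo1 0.54, Myc 0.54, Herpud1 0.45 and Hspa9 0.37.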

How the results depend on the processing

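Samples with the same number in 5 to 8 had correlations of their deviations of 0.24, 0.03, 0.07 and 0.05. In 1 to 4 the correlations were 0.56, 0.39, 0.63 and -0.52. The labels do not say whether samples with the same number are pairs, and these values cannot settle it. The replicate block gave 776 calls in 5 to 8 (610 without it), 327 between blocks (284) and 735 in the other blocks (793). Counts moved by over 1.5 times as follows. In 5 to 8, DESeq2 gave 396, spike-in scaling 26 and an adjusted p under 0.01 337. Between blocks, spike-in scaling gave 3, thinning to the lowest total 160 and p under 0.01 156. The untreated contrast (522) gave 28, 320 and 274, and 338 without numbers 13 to 16; the treated one (1567) gave 57, 752 and 850. The other blocks (793) gave 411 when thinned and 444 at p under 0.01. Leaving out 1 library gave 408 to 829 in 5 to 8, 221 to 249 between blocks, 327 (without AZA 8) to 409 untreated and 971 (with AZA 7) to 1440 treated. Spike-in scaling moved the median of all genes by 0.26 in 5 to 8 and 0.42 in the untreated contrast; the spike-in share ran from 0.0369% to 0.2075% among with AZA 5 to 8. It turned Axl to 0.016 and Dnmt1 to 0.225, and leaving out 1 library gave -0.086 to 0.032 for Dnmt1. The causes were not tested. Depth limits genes with a few UMIs, whose ratios have wide intervals.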

Other observations

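With AZA 5 also differed from with AZA 6 to 8 in single genes, chosen here after their values were seen and given without a test. Car9, a carbonic anhydrase induced by low oxygen, was at 57.7 CPM in it and at 16.3 to 23.3 in the other 3, against 3.89 to 13.9 without the drug. Ndufa4l2, which hypoxia also induces, was at 56.2 against 12.8 to 25.4 CPM. The calcium-binding protein S100a4 was at 973 against 453 to 498 CPM, and Il1rl1, the receptor of an alarm cytokine of the interleukin family, at 839 against 388 to 468. In the other direction Pfas, an enzyme of purine synthesis, was at 6.64 CPM against 17.5 to 23.6.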
